A study of Mus musculus with 19 samples.

Results

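The 5 microRNAs (miRNAs) of a pair of genomic clusters, mmu-miR-132 and mmu-miR-212 of one and mmu-miR-183, mmu-miR-96 and mmu-miR-182 of the other, were followed in mouse liver across doses of dibenz[a,h]anthracene. They were chosen by name, 5 of the 696 miRNAs on the array, and miR-212 is listed there as miR-212-3p. The measurements were 19 one-colour Agilent miRNA arrays, each with liver RNA of 1 male MutaMouse (transgenic mouse strain 40.6, which carries a reporter for mutations). All mice were 10 weeks old and were gavaged daily for 28 days, and livers were collected 3 days after dosing ended. Controls received olive oil alone (0 mg/kg/day, 5 arrays), and the others received the compound in olive oil at 6.25 (low dose, 5 arrays), 12.5 (middle dose, 4 arrays) or 25 mg/kg/day (high dose, 5 arrays). The labels give 5 animals per dose, and 1 middle dose animal was not analysed here.

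Dibenz[a,h]anthracene is a polycyclic aromatic hydrocarbon that binds the aryl hydrocarbon receptor (AhR), a ligand-activated transcription factor that induces xenobiotic-metabolizing enzymes in liver. In mouse T cells, AhR ligands are known to raise miR-132 and miR-212, which are otherwise best known as targets of the transcription factor CREB in neurons. The miR-183, miR-96 and miR-182 genes are transcribed together and are best known from sensory organs, where mutations in the seed of miR-96 cause hearing loss in mouse and human. A miRNA recognises its target mRNAs mainly through its seed, bases 2 to 8.

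The mature sequences are shown because shared and differing seeds define how the 5 are related, with the seed in capitals (RefSeq, build GRCm38.p6, 5′ to 3′).
miR-132: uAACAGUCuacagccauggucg
miR-212: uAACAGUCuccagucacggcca
miR-183: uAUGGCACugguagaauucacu
miR-96: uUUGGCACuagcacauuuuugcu
miR-182: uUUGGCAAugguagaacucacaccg

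The miR-132 and miR-212 sequences lie on the plus strand at chr11:75173723-75173744 and chr11:75173443-75173464, and their hairpins are 203 bases apart. These miRNAs have the same seed and the same base at 17 of 22 positions counted from the 5′ end. The miR-183, miR-96 and miR-182 sequences lie on the minus strand at chr6:30169711-30169732, chr6:30169506-30169528 and chr6:30165962-30165986. Their hairpins lie inside the non-coding RNA gene Mirc35hg, with 116 bases between Mir183 and Mir96 and 3453 bases between Mir96 and Mir182. Counting from the 5′ end, the seed of miR-96 differs from that of miR-183 by A2U, and the seed of miR-182 differs from that of miR-96 by C8A. Over their whole length miR-183 and miR-182 have the same base at 18 of 22 positions, against 13 of 22 for miR-183 and miR-96.

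Neither cluster was detected as a unit in these livers. By the scanner software's detection call, miR-96 was detected on all 19 arrays and miR-212 on 16, while miR-183 was detected on 1 array, and miR-132 and miR-182 on 0. miR-212 was detected in 5 of 5 controls, 5 of 5 low dose, 3 of 4 middle dose and 3 of 5 high dose livers. The single detection of miR-183 was in low dose replicate 11. A stricter call, a probe well above background on at least 0.5 of its spots, left miR-96 in 5 controls, 5 low dose, 4 middle dose and 4 high dose livers, and miR-212 in 4, 4, 1 and 0 of these groups. The other strand of the miR-183 hairpin, miR-183*, was on the array and was detected on 0 of 19 arrays. By the software's call, detection varied only for miR-183 (low dose and controls) and miR-212 (middle or high dose and controls). Other members and doses had no test, and none of the tests was passed. For miR-212 Fisher's exact test (two-sided) gave p = 0.444 for middle dose livers against controls (adjusted p = 0.652 over 91 miRNAs) and p = 0.444 for high dose livers (adjusted p = 0.952 over 90). The same test called 0% of the miRNAs whose detection varied at any dose, and its unadjusted p was under 0.05 for 0 miRNAs (low dose), 10 (middle dose) and 10 (high dose). All these p-values are for the software's call and do not measure the larger gap in miR-212 under the stricter call. Tests on the stricter call also called 0 members after adjustment.

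Several facts of the arrays bear on such weak signals. The arrays lay on 3 slides, each with all 4 groups, but all 5 high dose arrays lay in the second row of a slide and 4 of 5 controls in the first. The middle dose arrays of slides 1 and 2 also lay in the second row, and that of slide 3 in the first. The signal of RNA spiked in before labelling averaged 10.1 ± 0.2 log2 units in high dose livers and 10.9 ± 0.2 in controls (SD, n = 5 each), with all 5 high dose arrays below all controls (exact permutation test, two-sided, p = 0.00794, adjusted p = 0.0476 over 9 tests). The number of miRNAs detected averaged 170 ± 13 in high dose livers and 201 ± 11 in controls (exact permutation p = 0.0159, adjusted p = 0.0476). The 75th percentile of signal by which arrays were scaled averaged 195 ± 37 in high dose livers and 357 ± 111 in controls (exact permutation p = 0.0159, adjusted p = 0.0476). Middle dose livers averaged 10.4 ± 0.2 for the spiked-in RNA (SD, n = 4), with 3 of 4 arrays below all controls. They averaged 169.5 ± 11.1 miRNAs detected and 215 ± 61 for the percentile. Their exact permutation p-values were 0.0317, 0.0317 and 0.0635 (adjusted p = 0.0571, 0.0571 and 0.0952). At the low dose the adjusted exact permutation p-values were 0.357, 0.508 and 0.402. The part of these measures in the results below was not tested. The hepatocyte list, which includes the liver miRNA miR-122, was detected on all arrays for 5 of 5 members, and 6 of 7 neural miRNAs were detected on none. In bulk liver, fewer cells of a type and less RNA per cell cannot be told apart.

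**Figure D1:**
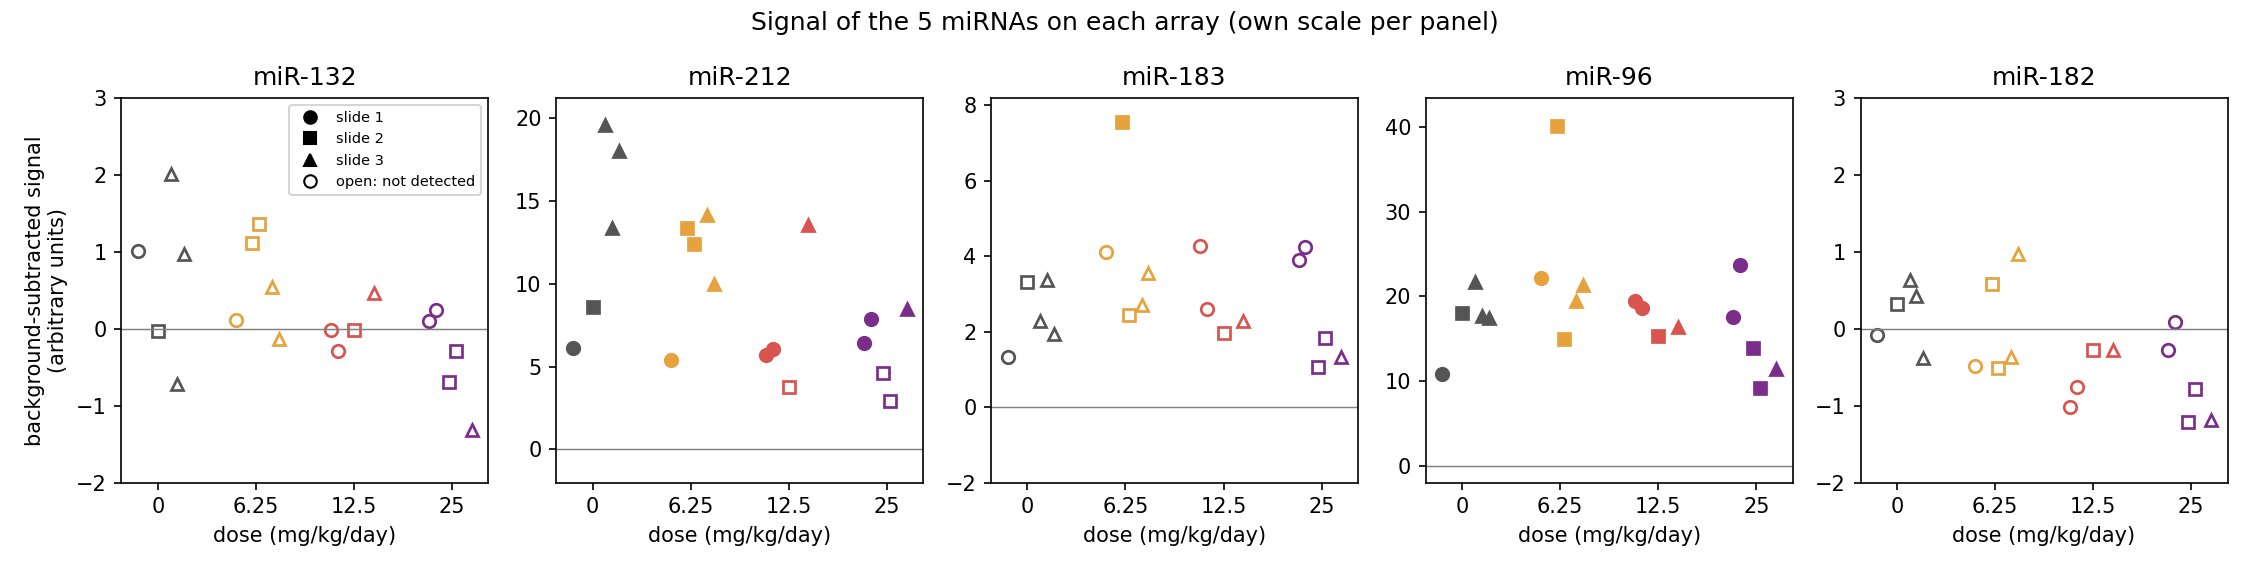
Background-subtracted signal (arbitrary units, own scale in each panel) of the 5 miRNAs on each array, by dose in mg/kg/day; marker shapes are slides and open markers are arrays where the miRNA was not detected. miR-96 is filled on all 19 arrays, miR-183 on 1, and miR-132 and miR-182 lie around 0.

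miR-96 was the member detected most often, and its mean scaled level was higher in dosed livers than in controls without passing the test. Its signal, in arbitrary units after background subtraction and before any scaling and in order of replicate number, was 10.8, 18.1, 21.7, 17.7 and 17.5 in controls. It was 22.2, 40.1, 14.9, 19.5 and 21.3 in low dose livers, 19.4, 18.6, 15.3 and 16.3 in middle dose livers, and 17.5, 23.7, 13.9, 9.21 and 11.5 in high dose livers. On this scale the groups overlapped at every dose, and the highest value of all was low dose replicate 11.

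Arrays were then put on one scale by dividing each by its 75th percentile over 220 probes, and a miRNA's level is the log2 of that ratio. These probes were well above background on more than 0.5 of their spots on every array. Values under a floor of -4.79 were raised to it and have no order among themselves. The floor is relative to an array's percentile, so an array with a high percentile can lie at it although the miRNA was detected there. The miR-96 level was -4.34, -4.25, -4.35, -4.02 and -4.79 in controls, the last being the floor. That array, control replicate 22, had a miR-96 signal of 17.5 with 100% of spots well above background, and the highest percentile, 491. The miR-96 level was -3.31, -3.22, -4.48, -4.20 and -3.38 in low dose livers, -3.18, -3.23, -3.75 and -4.22 in middle dose livers, and -3.64, -3.26, -3.65, -3.92 and -4.25 in high dose livers. Means were -4.35 ± 0.28 in controls, -3.72 ± 0.58 in low dose, -3.59 ± 0.49 in middle dose and -3.74 ± 0.37 in high dose livers (SD, n = 5, 5, 4 and 5). The level lay above all controls in 3 of 5 low dose, 3 of 4 middle dose and 4 of 5 high dose livers, 10 of 14 in all. Of the 208 tested miRNAs, 15.4% had at least as large a share above all controls at the low dose, 21.6% at the middle dose, 11.1% at the high dose and 8.65% over all dosed livers. Of all 696 miRNAs only 196 rose above the floor on any array. Some of the 208 therefore lay at the floor throughout and could not differ, which lowers the shares here and in the fits below.

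**Figure D2:**
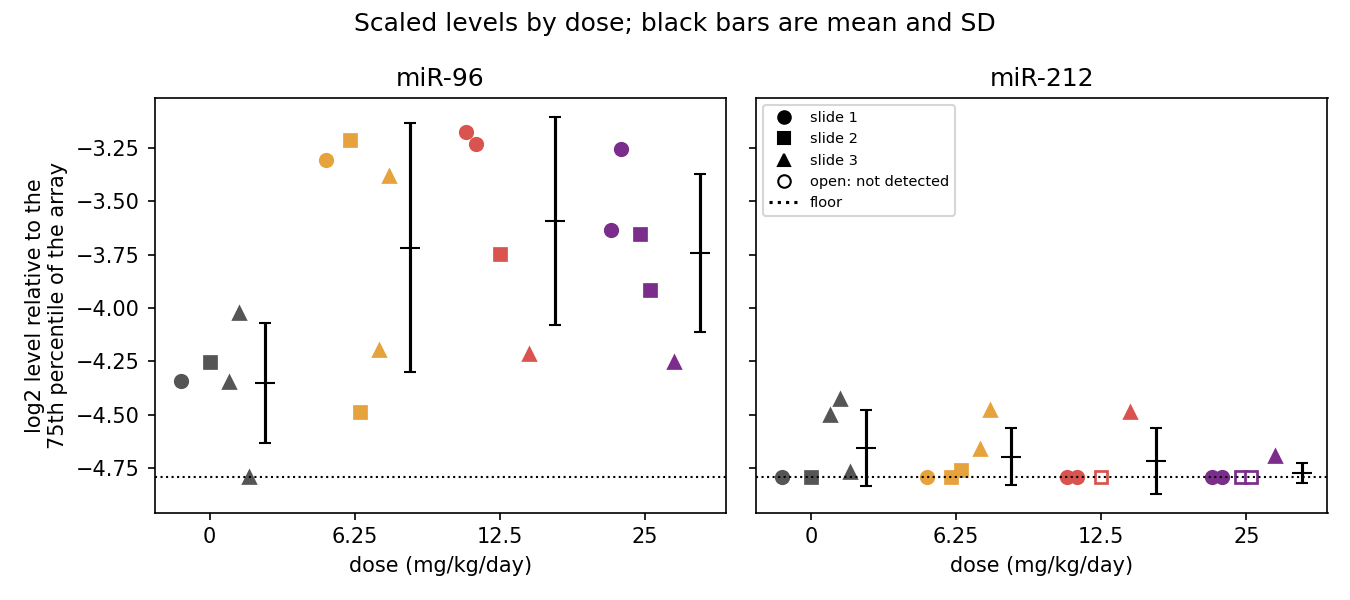
Scaled log2 level (0 is an array's 75th percentile) of miR-96 and miR-212 by dose in mg/kg/day; points are arrays with a marker shape per slide, black bars are mean and SD, and the dotted line is the floor at -4.79. The miR-96 groups overlap, and 11 of 19 miR-212 arrays lie at the floor.

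Differences between groups were fitted with limma across the 208 miRNAs detected on at least 4 arrays, with the slide as a block and p-values adjusted by Benjamini-Hochberg over all 208. Of the 5 members, miR-96 and miR-212 could be tested. None of them was called at any dose, where the share of all tested miRNAs called was 4.33% (low), 5.77% (middle) and 2.4% (high). None was called in the linear trend over dose (0.962% called), for the mean of the doses against control (8.17%) or in the F test over the 4 groups (0.962%). At an unadjusted p under 0.05, limma gave 28, 52 and 53 of the 208 miRNAs for low, middle and high against control, and 48, 51 and 52 for the trend, the mean and the F test. miR-96 was among them at the low and middle doses and for the mean.

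For miR-96 the fitted fold over controls was 1.52 at the low dose (95% interval 1.05 to 2.20, limma adjusted p = 0.280). The middle dose fold was 1.50 (1.00 to 2.24, limma adjusted p = 0.191). The high dose fold was 1.38 (0.943 to 2.02, limma adjusted p = 0.275). The mean of the doses lay 0.55 log2 units above controls (0.10 to 1.00, limma adjusted p = 0.114), and the slope over dose was 0.0126 log2 units per mg/kg/day (limma adjusted p = 0.527), or 0.00430 without control replicate 1. Its log2 differences of 0.60, 0.58 and 0.47 ranked 3, 16 and 21 of the 208 miRNAs, whose median differences were 0.07, 0.11 and 0.05. For scale, miR-34a, a miRNA induced by the tumour suppressor p53, had log2 differences of 1.52, 3.11 and 3.49 (limma adjusted p = 0.0165, 3.59e-05 and 4.88e-06).

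The difference in miR-96 had the same direction within every slide but not the same size. On slides 1, 2 and 3 the low dose difference was 1.04, 0.40 and 0.60 log2 units. The middle dose difference was 1.14, 0.51 and 0.17, and the high dose difference 0.90, 0.47 and 0.13. Each of these rests on 1 to 3 arrays a group. Without control replicate 1 the difference fitted over all slides at the high dose was 0.30. The difference also depended on the scaling: with no scaling between arrays the low, middle and high dose log2 differences were 0.43, 0.014 and -0.24 (limma adjusted p = 1, 1 and 0.543). With quantile normalization the 3 differences were 0.38, 0.10 and 0.047, and with the percentile taken over all probes 0.53, 0.10 and 0.20. With slide and row as blocks they were 0.60, 0.46 and 0.28 (limma adjusted p = 0.313, 0.490 and 0.844). In the authors' deposited log2 value table they were 0.19, 0.11 and 0.10.

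**Figure D3:**
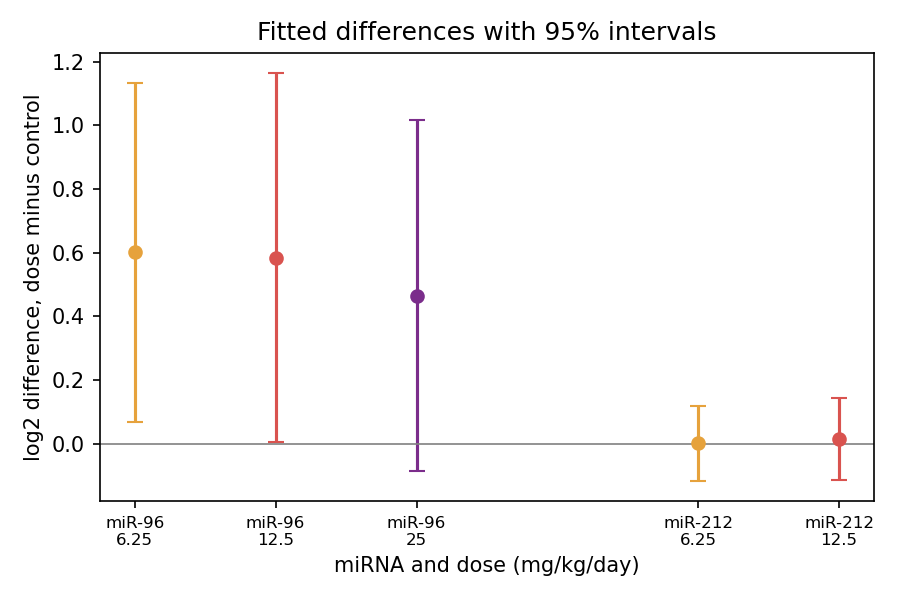
Fitted log2 difference, dose minus control, with 95% intervals for miR-96 and miR-212 at each dose in mg/kg/day. The miR-96 estimates are 0.60, 0.58 and 0.47, and the miR-212 estimates at the low and middle doses lie close to 0. No miR-212 estimate is drawn at the high dose, where its probe was not well above background.

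miR-212 was a weak signal whose mean differed between slides as well as between doses, and it passed no test of dose. Its signal was 6.09, 8.61, 19.6, 13.4 and 18.0 in controls, 5.42, 13.3, 12.4, 14.2 and 10.0 in low dose livers, 5.67, 6.07, 3.75 and 13.6 in middle dose livers, and 6.43, 7.89, 4.59, 2.95 and 8.46 in high dose livers. Means were 13.1 ± 5.8 in controls, 11.1 ± 3.5 in low dose, 7.26 ± 4.32 in middle dose and 6.06 ± 2.30 in high dose livers, and each dose overlapped the controls. By slide the mean was 6.26 ± 0.87, 7.60 ± 4.52 and 13.9 ± 4.0 (SD, n = 6, 6 and 7), and slide 3 held 3 of the 5 controls but 1 of the 5 high dose arrays.

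After scaling, miR-212 lay at the floor on 2 of 5 control, 2 of 5 low dose, 3 of 4 middle dose and 4 of 5 high dose arrays, and all 7 arrays of slide 3 lay above it. The floor did not follow the signal: low dose replicate 11 lay at it with a signal of 13.3 and 100% of spots well above background. High dose replicate 23 lay above it with a signal of 8.46 and 20% of spots. The fitted fold over controls was 1.00 at the low dose (95% interval 0.923 to 1.09, limma adjusted p = 1). For middle dose livers it was 1.01 (0.925 to 1.10, limma adjusted p = 1). The high dose comparison had a limma adjusted p of 0.83. Because 11 of 19 levels sat at the floor, these intervals describe floored values and are too narrow for the RNA itself. With no scaling, the high dose log2 difference was -0.41 (limma adjusted p = 0.0973). The probe was not well above background on any high dose array. Its measured mean level there was -5.09 ± 0.34, against -4.84 ± 0.40 in controls. The high dose mean lay below the bound of -4.41 set by the lowest signals well above background. No high dose fold is therefore given for the main fit. High dose differences quoted for other settings or with an array left out show how the value moved, and do not measure the RNA.

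miR-183 was read as a faint signal that seldom reached the detection call. It was 1.33, 3.31, 2.28, 3.36 and 1.94 in controls, 4.10, 7.56, 2.45, 2.70 and 3.57 in low dose livers, 4.28, 2.60, 1.96 and 2.28 in middle dose livers, and 3.89, 4.25, 1.08, 1.83 and 1.32 in high dose livers. It exceeded the brightest negative-control probe on 16 of 19 arrays, but its probes were well above background on 0 of 19. Each dose overlapped the controls. All 19 scaled levels lay at the floor, and miR-183, detected on 1 array, did not meet the filter of detection on at least 4. No fold change was therefore fitted.

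miR-132 and miR-182 were at background by the detection call on every array. miR-132 ran from -1.32 to 2.01, with a median of 0.98 in controls, 0.55 in low dose, -0.015 in middle dose and -0.29 in high dose livers, and passed the brightest negative-control probe on 3 arrays, all of them controls. miR-182 ran from -1.21 to 0.97, with medians of 0.32, -0.37, -0.52 and -0.79 in the same order, and passed that probe on 0 of 19 arrays. At this signal a difference between doses was not detectable for either. miR-212 was thus detected in livers where its seed partner miR-132 was not, although intensities of different probes cannot be ranked against each other.

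The faint miR-183 signal followed that of its neighbour miR-96 from array to array. Over the 19 arrays Pearson's r between the unscaled signals was 0.899 (permutation test of 100000 resamples, p = 2e-05, adjusted p = 8e-05 over 4 pairs of cluster partners). Spearman's rho was 0.828 (permutation p = 3e-05, adjusted p = 0.00012). Without the 2 arrays farthest from the median, low dose replicate 11 and high dose replicate 16, r was 0.774. It was 0.887 after scaling by the 75th percentile and 0.892 after slide and group means were removed, and 0.860, 0.965 and 0.679 within slides 1, 2 and 3. Within groups r was 0.535 in controls, 0.988 in low dose, 0.848 in middle dose and 0.839 in high dose livers, each over 4 or 5 arrays. These pairs and this scale were chosen after the data were seen, since no cluster had 2 members that could be tested on scaled levels.

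**Figure D4:**
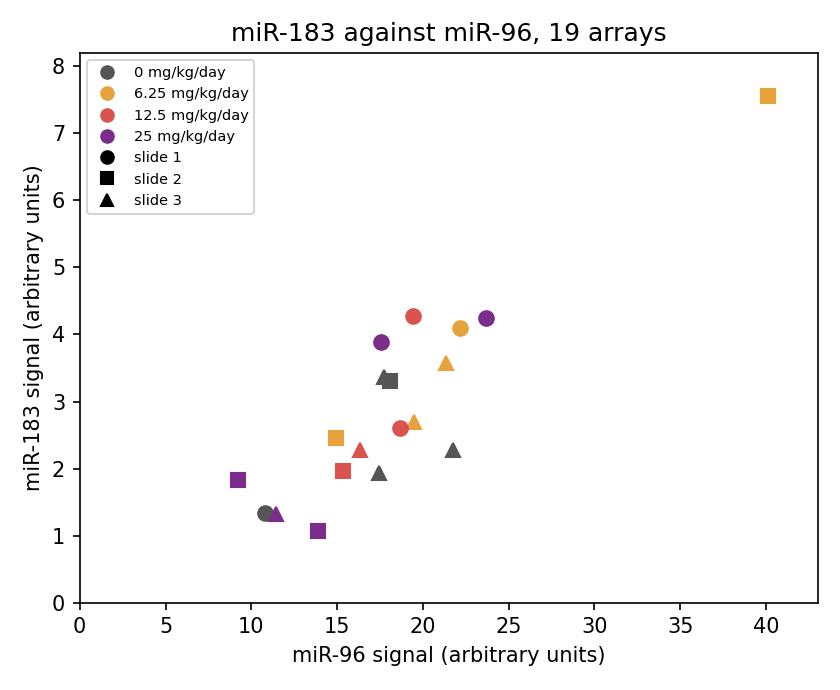
Signal of miR-183 against that of miR-96 (both in arbitrary units) on the 19 arrays, coloured by dose and shaped by slide. The array with both signals highest is low dose replicate 11, and r is 0.899 with it and 0.774 without it and high dose replicate 16.

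The relation held for separate probes: the second probe of miR-183 gave r = 0.841 with miR-96, and the second probe of miR-96 gave r = 0.900 with miR-183. The probes of one miRNA correlated at 0.991 for miR-96, 0.871 for miR-212 and 0.728 for miR-183, against 0.354 for miR-182 and 0.187 for miR-132. Of the 695 other miRNAs on the array, miR-183 had the highest r with miR-96, followed by miR-1930 at 0.740, and the median was 0.171. On this unscaled measure the miRNAs of an array also share its overall brightness. The permutations shuffled arrays freely over slides and doses and made no allowance for this. Their p-values, for this pair and the others, can therefore be too small.

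The r of the other pairs depended on the measure: it was positive on unscaled signals over all arrays and close to 0 after scaling. miR-96 and miR-182 gave r = 0.536 (permutation adjusted p = 0.0189), miR-183 and miR-182 gave 0.459 (adjusted p = 0.0450), and miR-132 and miR-212 gave 0.597 (adjusted p = 0.0139). Their Spearman rho was 0.518, 0.428 and 0.496 (permutation adjusted p = 0.0433, 0.0705 and 0.0433). Among the 695 other miRNAs, miR-96 ranked 47 and miR-183 ranked 124 by r with miR-182, where the median r was 0.284. By r with miR-212, miR-132 ranked 213, with a median of 0.355. The scaled values of the 3 pairs, in the order given first, were -0.095, 0.010 and 0.125. On unscaled signals with slide and group means removed they were 0.556, 0.585 and 0.756. Within slides 1, 2 and 3 the unscaled r was -0.101, 0.763 and 0.861 for miR-96 and miR-182, -0.199, 0.839 and 0.820 for miR-183 and miR-182, and 0.112, 0.890 and 0.895 for miR-132 and miR-212. Without the 2 arrays farthest from the median r was 0.540 and 0.401 for the first and the second pair. The miR-132 and miR-212 value was 0.355 without control replicates 17 and 22, the 2 farthest there. The second probe of miR-182 gave r = 0.216 with miR-96 and 0.024 with miR-183. With the brightest probe of miR-182, the second probe of miR-96 gave 0.501 and that of miR-183 gave 0.727. For miR-132 and miR-212, r was 0.575 with the second probe of miR-132 and 0.549 with that of miR-212.

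**Figure D5:**
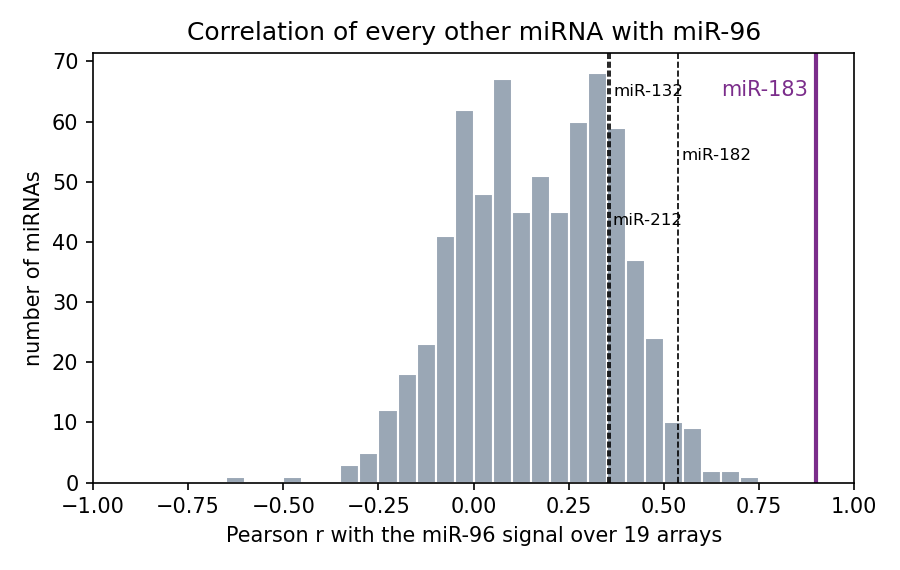
Number of miRNAs by their Pearson r with the unscaled miR-96 signal over 19 arrays, for the other miRNAs of the array, with vertical lines at the other 4 members. miR-183 stands at 0.899, beyond miR-1930 at 0.740, and miR-182 at 0.536.

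On scaled levels, the tested miRNAs most like miR-96 over the 19 arrays were miR-148b (r = 0.682), miR-15b (0.655) and miR-652 (0.617). Those most like miR-212 were miR-202-3p (0.909), miR-2140_v15.0 (0.766) and miR-1904 (0.685). After slide and group means were removed, miR-335-5p (0.465), miR-212 (0.418) and miR-185 (0.414) came first for miR-96, and miR-202-3p (0.819), miR-2134_v15.0 (0.776) and miR-2141_v15.0 (0.769) for miR-212. For miR-212 such values include shared floors and slides, and the levels of one array share its labelled RNA and scaling.

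Other cell types were read from marker lists. Of 7 leukocyte miRNAs 4 were tested, and miR-223, abundant in myeloid cells, rose at all 3 doses, by log2 differences of 0.37, 0.48 and 0.39 (limma adjusted p = 0.0382, 0.0198 and 0.0482). These calls depended on the processing: over 17 alternatives miR-223 was called in 6 for low dose, 8 for middle dose and 5 for high dose livers. With 1 array left out it was called in 10, 16 and 4 of 19 fits, and without control replicate 10 in none of the 3 comparisons (limma adjusted p = 0.201, 0.0869 and 0.132). The other tested leukocyte miRNAs were called at no dose: miR-142-3p had log2 differences of 0.19, 0.20 and 0.12, miR-142-5p 0.26, 0.0064 and -0.08, and miR-146a 0.28, 0.17 and 0.15. miR-150, miR-155 and miR-146b were detected on 0 arrays. Of 7 epithelial or bile duct miRNAs all were tested and 0 were called, with median log2 differences of 0.34, 0.22 and 0.33. Members differed in direction: miR-31 had log2 differences of -0.039, -0.31 and -0.33 and miR-203 0.0094, -0.11 and -0.26. At the high dose their limma adjusted p was 0.103 and 0.101. miR-200a, miR-200b, miR-200c, miR-141 and miR-429 had positive differences at every dose, with a lowest limma adjusted p of 0.673. The summed signal of the list was 51.7 to 659 in high dose livers and 104 to 187 in controls. The part of these miRNAs in the miR-96 values was not tested.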

How the data were processed

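Signals came from the scanner files of 19 arrays, with intensities read and background-subtracted by Agilent Feature Extraction 10.7.3.1, per the file headers, and no scaling between arrays. The series' value table, used as an alternative, holds log2 values as the authors deposited them, by a method not given in the sources used. Spots flagged as outliers were left out, the rest were averaged per probe, and the brightest probe stood for a miRNA. There were 0 saturated spots. Scaling, floor and filter are given with the results. Tests used lmFit and eBayes of limma 3.58.1 (R 4.3.3; two-sided, threshold 0.05), after checks on simulated data, and scipy 1.17.1. Detection is the gene-level call of the scanner software. The normexp alternative used median signals, since the files have no mean signal. Named were the 5 members, the other strands of their hairpins, miR-34a, the 3 most like each tested member, and listed cell markers; miR-1930 was named after its value was seen. Members and lists were chosen with earlier results of these data known. Each array is 1 animal per the labels, and the number of arrays limits the precision.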

Additional observations from a re-analysis of the deposited data

Results flagged for a closer look

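In 20 sets of values (miR-96, miR-212 and miR-183 signals and miR-96 and miR-212 levels, by group), 3 arrays met Dixon's criterion for standing apart from their group. Chance alone meets it in about 1 in 20 sets of continuous values. The miR-96 signal of low dose replicate 11 was 40.1, with the nearest array at 22.2. The same array gave the highest miR-183 signal, 7.56, and the only detection of miR-183. The miR-212 level of middle dose replicate 20 was -4.48 and that of high dose replicate 23 was -4.69, while the other arrays of both groups lay at the floor of -4.79. For these 2 values the criterion was met by construction, since the arrays at the floor are tied, and the 1 in 20 does not apply. On the unfloored signal neither met it: high dose replicate 23 was 8.46, with the next array at 7.89, and middle dose replicate 20 was 13.6, with the next at 6.07. Both arrays lay on slide 3, where miR-212 was above the floor on all 7 arrays.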

How the results depend on the processing

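Of the members, only miR-96 and miR-212 were fitted. Neither was called by limma in any of the 6 tests under any alternative or with any array left out. The detection tests that could be run called 0 members under both calls. The count over all tested miRNAs was less stable: leaving out 1 array gave 0 to 13 calls at the low dose (9 with all arrays), 2 to 36 at the middle (12), 1 to 23 at the high (5), 2 to 17 for the trend (2), 2 to 35 for the mean of the doses (17) and 1 to 11 for the F test (2). Other alternatives gave 0 to 10, 1 to 36, 1 to 70, 1 to 105, 1 to 19 and 1 to 20 calls. With 1 array left out, the miR-96 log2 difference ran from 0.43 to 0.78 at the low dose, 0.41 to 0.75 at the middle and 0.30 to 0.57 at the high, with lowest adjusted p-values of 0.0605, 0.120 and 0.178, and from 0.39 to 0.66 over the mean of the doses (0.0517). Its slope ran from 0.00430, without control replicate 1, to 0.0180. With no scaling miR-96 reversed at the high dose (-0.24) and in its slope (-0.0160), and with quantile normalization in its slope (-0.00315). With no scaling the miR-223 differences were -0.091 (middle dose) and -0.32 (high dose), and with the percentile over all probes -0.0052 (middle dose). A floor 4 times higher put all miR-96 and miR-212 values at 0. For miR-212 the mean over its probes and its second brightest probe also gave 0 at each dose. Under such settings the miRNA concerned could not have been called.

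The miR-212 differences changed sign often between settings, and the cause was not tested. Normexp and the value table were fitted without the floor, so their sizes cannot be set directly against those of floored levels. The largest differences were 0.31 at the low and 0.67 at the middle dose with normexp (adjusted p = 0.507 and 0.110) and -0.46 at the high dose with the total signal (0.360). At the low dose it was -0.083 with the percentile over all probes, -0.15 with quantile normalization, -0.086 with no scaling, -0.021 with the labelling spike-ins as scale, -0.039 with no slide block and -0.023 with a random block. At the middle dose these were -0.20, -0.19, -0.24, -0.032, -0.060 and -0.030, with -0.014 for a floor 4 times lower, -0.36 for the software's total signal and -0.047 for the value table. At the high dose it was 0.060 with spike-ins, 0.33 with normexp and 0.031 with slide and row as blocks. The slope was 0.00278, 0.0110 and 0.000955 under the same alternatives, and the mean of the doses 0.00230, 0.44 and 0.031, with 0.042 for the lower floor. With 1 array left out it ran from -0.044 to 0.036 at the low dose, -0.027 to 0.047 at the middle, -0.072 to 0.0082 at the high, -0.00246 to 0.000366 for the slope and -0.048 to 0.027 for the mean. miR-212 was not tested when detection on all arrays was required. No paired analysis was possible because the groups share no replicate numbers. Signals near background limit all 5 members, and miR-132, miR-182 and miR-183 could not be fitted.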
